A study of Rattus norvegicus with 15 samples.

Results

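The genes described here are 35 genes of fatty acid oxidation and ketogenesis, measured as messenger RNA in rat liver. They were named as a pathway and not chosen by a measured value, although earlier results of these data were known. Each was found on the array by the gene name of its probe, current or older, with the brightest probe standing for a gene. Of the 35 genes, 34 were found in this way, with 45 probes between them, among 36591 genes and unnamed probes on the array. Plin2 had no probe under its name and was read from a probe whose description names its older synonym, adipose differentiation-related protein, so it is left out of the counts. All 34 genes were well above background on all 15 arrays and passed the filter on dim probes, which left 20343 features to test.

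The study compared livers of female Wistar rats (Crl:WI) aged 2 to 3 months that received fipronil by gavage at 3 mg/kg per day for 14 days (n = 8) with livers of rats that received its vehicle alone (n = 7), a solution of 0.5% methylcellulose and 0.01% Tween 80. Fipronil is an insecticide of the phenylpyrazole class, and its target in insects is the chloride channel gated by GABA. Both groups ate chow freely, and RNA came from a fragment of the large liver lobe, so every value is a mixture of the cells of that fragment. Each rat had its own one-colour array, and the 15 arrays lay on 4 slides with both groups on each.

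Fatty acids enter hepatocytes, are activated to acyl-CoA and cross the mitochondrial membrane as carnitine esters, a step that Cpt1a limits. Beta-oxidation then shortens the chain through repeated dehydrogenation, hydration, a second dehydrogenation and thiolysis, and its electrons reach the respiratory chain through the electron transfer flavoprotein. In fasting, the liver turns the acetyl-CoA into ketone bodies. Much of the pathway is transcribed under the control of the nuclear receptor PPARalpha, and very long chains are first shortened in peroxisomes.

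No gene of the set passed the test for a difference between fipronil and vehicle. With limma and Benjamini-Hochberg adjustment over all features, 0 of 34 genes had an adjusted p under 0.05. Of all features tested, 0.86% did (0.546% higher and 0.315% lower with fipronil), so few that 0 of 34 does not set the genes apart. The smallest adjusted p was 0.125, for Acadvl. The brightest probes of 3 genes, Fabp1, Acsl1 and Acaa1a, were saturated on 14 or 15 arrays and bound a level only from below. At an unadjusted p under 0.05, 13 genes were lower with fipronil and 1 was higher, and the same rule took 11.3% of all features as lower and 6.18% as higher, 17.5% in either direction. Over 35 other settings the number of lower genes ranged from 3, with array brightness as a covariate, to 15, without fipronil replicate 2. The fitted difference was below zero in 26 of 34 genes, against 55.6% of all features. The median difference was -0.20 on the log2 scale, against -0.03 over all features. Without the saturated genes, 10 of 31 were lower and 1 higher at that threshold, and the median was -0.13. In no gene did the 2 groups fail to overlap, which 0.619% of all features did.

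The size of any difference was bounded for most genes. Among the 31 genes never saturated, the 95% interval lay within a 2-fold change in either direction for 29 and within a 1.5-fold change for 22. The exceptions to the former were Cd36, a fatty acid translocase of the plasma membrane, and Vnn1, a pantetheinase that recycles the precursor of coenzyme A, whose intervals reached 0.37 and 0.45 of the vehicle level. The highest upper bounds were 1.88-fold for Pdk4 and 1.87-fold for Fgf21.

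**Figure D1:**
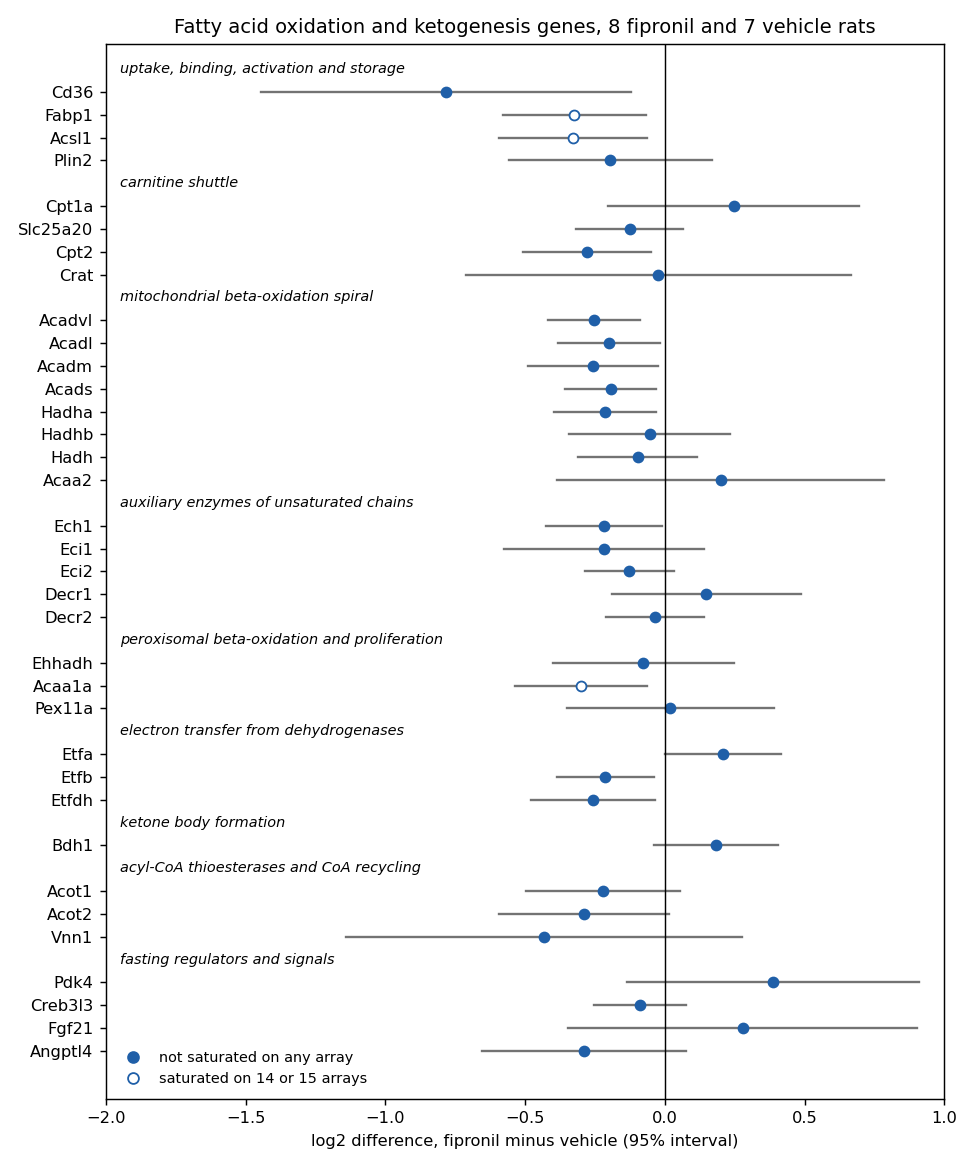
Log2 difference between fipronil (n = 8) and vehicle (n = 7) for each gene, with points for limma's estimate, lines for its 95% interval, and genes grouped by role; open points mark probes saturated on 14 or 15 arrays. Estimates lie between -0.33 and 0.39 except those of Vnn1 at -0.43 and Cd36 at -0.78, and Decr1 rests on 6 rats a group.

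The signal of a probe is its log2 intensity minus the log2 of the array's 75th percentile, so 1 unit is a doubling. Signals of different probes are not compared. The arrays of fipronil rats were brighter: this percentile averaged 171.5 ± 33.3 (SD) over the 7 vehicle arrays and 209.9 ± 25.8 (SD) over the 8 fipronil arrays (exact permutation test, two-sided, p = 0.0196, adjusted p = 0.0261 over 3 array measures). The count of saturated probes an array was 134.9 ± 27.4 and 168.4 ± 16.9 (SD) in the same order (two-sided exact permutation p = 0.0126, adjusted p = 0.0261). The labels name the rats as separate replicates, so p-values measure the spread between animals.

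Uptake, binding and activation of fatty acids were represented by Cd36, Fabp1 and Acsl1. Cd36 (rn4 chr4:13518295-13519542) had the largest difference of the set. Its signal in vehicle rats was 3.20 at the lowest, 3.87 at the median and 4.50 at the highest, and in fipronil rats it was 1.78, 2.99 and 4.19. Of the 8 fipronil rats, 5 lay below every vehicle rat and the other 3 lay within the vehicle range. The difference was -0.78 (SE 0.31, 95% interval -1.45 to -0.12), 1.72-fold lower, and did not pass the test (limma adjusted p = 0.219). It was below zero on each of the 4 slides, from -0.65 to -1.16. The spread among fipronil rats, an SD of 0.82, was larger than among vehicle rats, at 0.41, and this difference in spread was not tested.

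The spread of Cd36 was larger between arrays than between repeat spots of an array. The Cd36 probe was printed 10 times on each array, and the spots of an array had a median SD of 0.063, against 0.66 between rats of a group, which includes labelling and hybridisation. Cpt1a, also printed 10 times, had a spot SD of 0.047 against 0.44 between rats.

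Cd36 is also made by endothelial cells and macrophages. Markers of endothelial cells had a median difference of 0.25. Of 6 tested, 3 (Kdr, Stab2 and Lyve1) were higher at an unadjusted p under 0.05, against 6.18% of all features. Eng differed by 0.20, while Vwf and Cdh5 differed by -0.24 and -0.08. Whether the makeup of cells bears on Cd36 was not tested. The summed level of the endothelial markers, in multiples of the 75th percentile of the array, was 59.3 to 80.6 in vehicle and 70.8 to 131 in fipronil rats, most of it from Kdr. Markers of Kupffer cells and macrophages had a median of 0.19 with 0 of 9 called, and a summed level of 76.9 to 266 and 109 to 227.

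Fabp1, the abundant fatty acid binding protein of hepatocytes, was beyond the range of the scanner. Both of its probes were saturated on all 15 arrays, so no fold is given. Its signal was 8.22, 8.59 and 9.07 (lowest, median and highest) in vehicle and 7.89, 8.26 and 8.33 in fipronil rats, with overlapping groups. Before scaling, the mean log2 intensity was 15.9 ± 0.049 (SD, n = 7) and 15.9 ± 0.039 (SD, n = 8), a difference of -0.02. The lower scaled signal of fipronil rats thus came with a scaling reference that was higher by 0.31.

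Acsl1, which activates long-chain fatty acids, behaved alike on its brightest probe. That probe was saturated on 6 of 7 vehicle and all 8 fipronil arrays, with signals of 8.44, 8.88 and 9.29 against 8.16, 8.51 and 8.58, overlapping. Its unscaled difference was -0.02. The 3 other Acsl1 probes, none of them saturated, differed by 0.07, 0.01 and 0.17, with none below zero. Across all features saturated on all 15 arrays, 72 in number, the median scaled difference was -0.31 and 100% were below zero.

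Plin2, the coat protein of liver lipid droplets, differed by -0.19 (95% interval -0.56 to 0.17), and on slide 4 it was higher by 0.41 with fipronil.

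Fabp1 was the 1 gene of the set whose promoter window held a loose match to the element bound by PPARalpha with its RXR partner. The element is a pair of half-sites separated by 1 free base. Promoter windows of 300 bases, from RefSeq on build GRCr8, were at hand for 30 of the 35 genes (31 windows). The strict element, the half-site AGGTCA repeated, was searched on both strands and was in 0 of these windows and in 0.054% of all 33469 promoter windows. The looser form, the half-site AGGNCA repeated with any base at N in each copy, includes the strict one. It was in 1 member window and in 0.415% of all windows. The match, 13 bases on the strand opposite to the gene at positions -77 to -65 from its start, lies within the 29 bases shown, GRCr8 chr4:104749255-104749283. It is shown because it is the only match, and capitals mark it, read along the gene (plus) strand.
Fabp1: acaatcacTGACCTATGGCCTatatttga
A match is a description of the letters, and binding was not measured. The gene that carries it is also one whose level was saturated on every array.

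Of the carnitine shuttle, Cpt2 was lower at an unadjusted p under 0.05 and Cpt1a was not. Cpt1a (rn4 chr1:205912066-205912125), the outer membrane enzyme that controls entry, had signals of 2.34, 3.07 and 3.54 in vehicle and 2.50, 3.31 and 3.81 in fipronil rats. The groups overlapped, with 3 fipronil rats above every vehicle rat. Its difference was 0.25 (95% interval -0.20 to 0.70, 1.19-fold, adjusted p = 0.594), and slide 4 alone gave 1.06 while the other slides gave -0.34 to 0.03. Cpt2, the inner membrane enzyme that returns the chain to coenzyme A, had signals of 4.78, 5.02 and 5.21 in vehicle and 4.23, 4.78 and 5.05 in fipronil rats. Of the fipronil rats, 4 lay below every vehicle rat. The difference was -0.28 (SE 0.11, 1.21-fold lower, limma adjusted p = 0.206) and was below zero on each slide, most on slide 1 (-0.67).

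The carnitine-acylcarnitine carrier gene Slc25a20 differed by -0.13 (95% interval -0.32 to 0.07). Crat, which makes acetylcarnitine, differed by -0.02, with a wide interval of -0.71 to 0.66. Its SD between rats of a group, 0.69, was among the largest of the set.

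In the mitochondrial spiral, 7 of 8 enzymes had a difference below zero and 5 of them had an unadjusted p under 0.05. These were the acyl-CoA dehydrogenases of very long (Acadvl), long (Acadl), medium (Acadm) and short chains (Acads), which take the first step, and Hadha, the alpha subunit of the trifunctional protein. None passed the test, and the 5 differences lay between -0.26 and -0.19, each 1.14 to 1.19-fold lower.

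Acadvl (rn4 chr10:56856347-56856406) had signals of 6.17, 6.46 and 6.56 in vehicle and 6.04, 6.14 and 6.36 in fipronil rats. Each of the 8 fipronil rats had less than the vehicle mean, 5 were below every vehicle rat, and the groups overlapped in the rest. The difference was -0.25 (SE 0.077, limma adjusted p = 0.125), and a second Acadvl probe gave -0.16. Acadm, the enzyme lost in the common inherited defect of the pathway, had signals of 6.57, 6.84 and 6.98 in vehicle and 6.16, 6.64 and 6.93 in fipronil rats. Here 3 fipronil rats lay below the vehicle range, and the difference was -0.26 (SE 0.11, limma adjusted p = 0.246).

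Acadl signals were 7.79, 7.91 and 8.07 with vehicle and 7.40, 7.75 and 7.99 with fipronil, with 4 fipronil rats below the vehicle range (-0.20, limma adjusted p = 0.250). Acads signals were 6.75, 6.87 and 7.05 with vehicle and 6.52, 6.65 and 6.96 with fipronil, with 6 fipronil rats below that range (-0.19, limma adjusted p = 0.215). Acads was 0.06 higher with fipronil on slide 2, whereas the other 3 dehydrogenases were lower on each slide. Hadha, which carries the hydratase and dehydrogenase activities, had signals of 5.39, 5.61 and 5.83 with vehicle and 5.16, 5.39 and 5.59 with fipronil (-0.21, limma adjusted p = 0.221). All 8 fipronil rats lay below the vehicle mean and 4 below the vehicle range. Its second probe gave -0.12, and its dimmest, above background on 4 of 7 vehicle and 7 of 8 fipronil arrays, gave 0.46.

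The 3 remaining enzymes of the spiral had no unadjusted p under 0.05, and their intervals hold the differences of the other 5. Hadhb, the thiolase subunit of the trifunctional protein, differed by -0.05 (95% interval -0.34 to 0.23). Hadh, the dehydrogenase of shorter chains, differed by -0.10, and 0.05 on its second probe. Acaa2, the mitochondrial thiolase, was above the vehicle mean in 5 of 8 fipronil rats, with 0.20 on its brightest probe (95% interval -0.39 to 0.79) and 0.27 on the other.

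**Figure D2:**
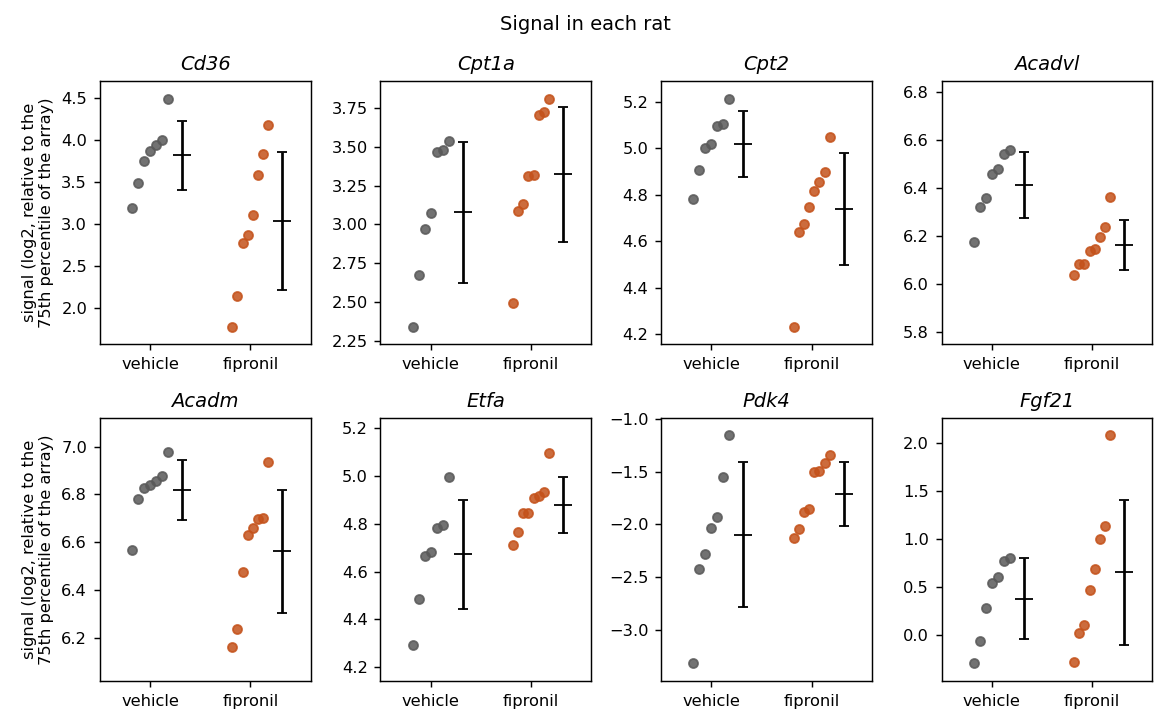
Signal of 8 genes in each rat (log2, relative to the 75th percentile of the array), with 1 point a rat and bars for the mean ± SD of each group. The groups overlap in every panel; Acadvl and Cd36 show 5 fipronil rats below the vehicle range, and Pdk4 shows none outside it.

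The auxiliary enzymes handle double bonds. Ech1, a dienoyl-CoA isomerase, had the tightest vehicle group of the set, with signals of 4.50, 4.55 and 4.66, against 4.07, 4.30 and 4.65 in fipronil rats. Of the fipronil rats, 5 lay below the vehicle range, and the difference was -0.22 (SE 0.098, limma adjusted p = 0.267). The enoyl-CoA isomerases Eci1 and Eci2 differed by -0.22 and -0.13, and the dienoyl-CoA reductases Decr1 (mitochondrial) and Decr2 (peroxisomal) by 0.15 and -0.04. Decr1 had outlier spots on 3 arrays, and its value rests on 6 vehicle and 6 fipronil rats.

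Of the peroxisomal genes, Acaa1a, a thiolase, was saturated on 6 of 7 vehicle and all 8 fipronil arrays, so no fold is given. Its signals were 8.16, 8.58 and 8.98 with vehicle and 7.88, 8.25 and 8.40 with fipronil, overlapping, and its unscaled difference was 0.01. Its other probe, never saturated, differed by 0.04. Ehhadh, the bifunctional enzyme that responds strongly to PPARalpha activators in rodents, differed by -0.08 (95% interval -0.40 to 0.25). Pex11a, a peroxisome division factor induced by such compounds, differed by 0.02 on its brighter and 0.31 on its dimmer probe.

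The electron transfer genes had opposite signs. Etfa and Etfb encode the 2 subunits of the electron transfer flavoprotein, and Etfdh the oxidoreductase that passes the electrons on to ubiquinone. Etfa had signals of 4.29, 4.68 and 4.99 with vehicle and 4.71, 4.88 and 5.09 with fipronil. All 8 fipronil rats were above the vehicle mean, and 1 was above the vehicle range. The difference was 0.21 (SE 0.098, 1.15-fold, limma adjusted p = 0.286), above zero on each slide.

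Etfb had signals of 7.48, 7.67 and 7.75 with vehicle and 7.23, 7.40 and 7.73 with fipronil, with 5 fipronil rats below the vehicle range. Its difference was -0.21 (SE 0.082, 1.16-fold lower, limma adjusted p = 0.201). Etfdh had signals of 3.73, 3.91 and 4.15 with vehicle and 3.44, 3.61 and 4.19 with fipronil. Here 7 of 8 fipronil rats lay below every vehicle rat, while the remaining rat, fipronil 2, was above them all. The Etfdh difference was -0.26 (SE 0.11, limma adjusted p = 0.224), and it was -0.34 without that rat (without fipronil replicate 2, adjusted p = 0.0644).

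For ketone body formation, Bdh1, which reduces acetoacetate to beta-hydroxybutyrate, differed by 0.18 (95% interval -0.04 to 0.40) and was above the vehicle mean in 7 of 8 fipronil rats. Among the acyl-CoA thioesterases, which release free fatty acid from coenzyme A, Acot1 differed by -0.22 and Acot2 by -0.29, and their probes were not checked for cross-hybridisation between these near copies. Vnn1 differed by -0.43 (95% interval -1.14 to 0.27) and had the largest spread of the set, an SD of 0.71 within groups. The 4 fasting regulators and signals had no unadjusted p under 0.05. Pdk4, the kinase that blocks pyruvate oxidation in fasting, had signals of -3.32, -2.04 and -1.15 with vehicle and -2.13, -1.68 and -1.34 with fipronil. Its difference was 0.39 (95% interval -0.13 to 0.91, 1.31-fold, adjusted p = 0.441), with 7 of 8 fipronil rats above the vehicle mean but none outside the vehicle range.

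Fgf21, the hepatic hormone of fasting, had signals of -0.29, 0.54 and 0.80 with vehicle and -0.28, 0.58 and 2.08 with fipronil. Its medians nearly coincided, 3 fipronil rats lay above the vehicle range, and the difference was 0.28 (95% interval -0.35 to 0.90). Angptl4, an inhibitor of lipoprotein lipase, differed by -0.29 (95% interval -0.65 to 0.08), and Creb3l3, a liver transcription factor of fasting genes, by -0.09 (95% interval -0.25 to 0.08).

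The lower values were concentrated among bright probes, where lower values were also common over the whole array. With Plin2 counted, 13 genes had a mean signal above 6, and 8 of them (61.5%) were lower at an unadjusted p under 0.05, against 20.9% of the 761 features that bright. Among these 8 were the saturated Fabp1, Acsl1 and Acaa1a, whose lower scaled signals are not read as lower levels. The 761 features also hold saturated probes. Between 4 and 6, 3 of 8 genes were lower, against 8.42% of features, and between 2 and 4 it was 2 of 8 against 7.76%. None of the 6 dimmer genes was lower. With the brightness of each array as a covariate, 3 genes were lower at that threshold, against 4.22% of all features.

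**Figure D3:**
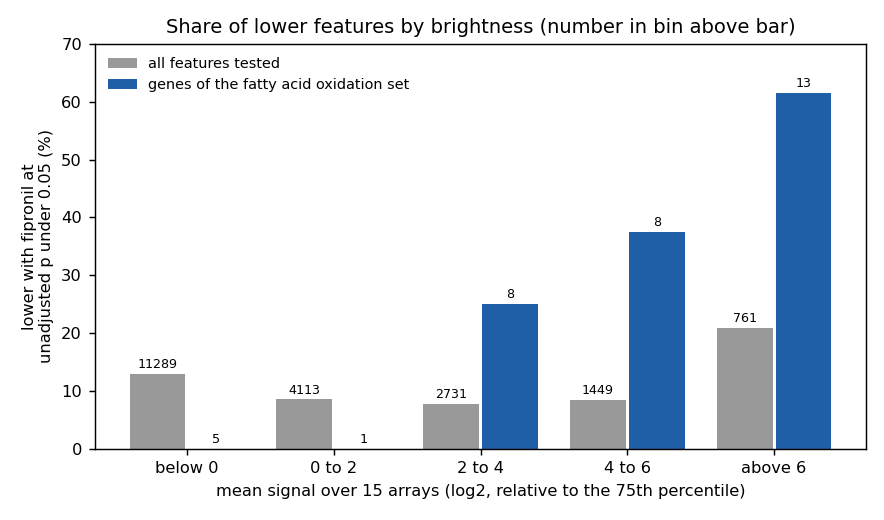
Share of features lower with fipronil at an unadjusted p under 0.05, by mean signal over 15 arrays, for all features tested (grey) and the 35 genes with Plin2 (blue), with the number of features or genes over each bar. The share is highest above a signal of 6 in both, 20.9% and 61.5%, and the lower genes there include the saturated Fabp1, Acsl1 and Acaa1a.

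The markers of hepatocytes, the cells that carry most of this pathway, had a median difference of -0.25. Of 8 markers 0 were called, and 4 (Alb, Ttr, Apob and Serpina1) were lower at an unadjusted p under 0.05. Their summed level was 1903 to 3272 in vehicle and 1519 to 2285 in fipronil rats. These 4 markers, and also Apoa1 and Tf, were saturated on all 8 fipronil arrays, so the summed level comes mostly from saturated probes. The markers never saturated, Cps1 and Hnf4a, differed by -0.02 and 0.03. In whole tissue, fewer cells of a type and less RNA per cell cannot be told apart. Whether brightness, saturation or the makeup of the fragments had a part in the 13 lower values was not tested further.

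Other genes of the pathway were read from a list of 107, of which 100 had a probe and 91 were tested. Of these, 1 was called, a share close to the 0.86% of all features. At an unadjusted p under 0.05, 10 were lower and 4 were higher, and the median difference was -0.04. As shares of the 91 genes, neither count exceeded the share of all features in the same direction, given above.

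The genes named here by smallest p did not pass the test. Ppara itself differed by 0.37 (95% interval 0.05 to 0.69, limma adjusted p = 0.221). Acat1, the mitochondrial acetoacetyl-CoA thiolase, differed by -0.28 (limma adjusted p = 0.120).

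Cidea, a lipid droplet protein, had a signal of 2.12 ± 0.38 (SD, n = 7) with vehicle and 2.86 ± 0.44 (SD, n = 8) with fipronil. Its difference of 0.74 (SE 0.20, limma adjusted p = 0.0859) missed the threshold, which it met with slide as a block (0.76, adjusted p = 0.0485), with array weights (0.82, adjusted p = 0.0384) and without vehicle replicate 3 (0.85, adjusted p = 0.0433), 3 of 35 alternatives. Over all 35 the difference ranged from 0.46 (without slide 4, adjusted p = 0.550) to 0.90. Of the adipocyte markers, Adipoq, Lep, Plin1 and Retn were above background on 0 arrays of either group, and Cfd was above background on all 15, with a difference of -0.04. The other differences were -0.28 for Pdk2, a second pyruvate dehydrogenase kinase, 0.29 for Acad9, an acyl-CoA dehydrogenase family member, 0.32 for the thioesterase Acot9 and -0.23 for the fatty acid transport protein Slc27a4. Slc27a2, of the same transport family, was saturated on all 15 arrays and has no fold.

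In 4 of the 6 lists of these genes, the counts were as follows. Of 19 other beta-oxidation enzymes, 2 were lower and 1 higher at an unadjusted p under 0.05. It was 1 lower of 21 other peroxisomal genes, 4 lower and 1 higher of 19 for fatty acid supply and lipid droplets, and 1 higher of 7 for uncoupling and acyl-CoA binding. The probes of the lower peroxisomal gene, Scp2, and of Slc27a2, Slc27a5 and G0s2 among the 4 lower supply genes were saturated on most arrays. Their lower scaled signals are not read as lower levels.

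Across rats, several genes of the set varied together within the groups. In the 5 pairs planned for their shared complex, sequence or signal, tested in each group, none of the 10 relations passed. Hadha and Hadhb, whose products form a single complex, came closest, with Pearson r = 0.88 and Spearman rho = 0.93 over 7 vehicle rats (exact permutation p = 0.0123 and 0.00675, adjusted p = 0.123 and 0.0675). Without the 2 rats farthest from the median of Hadha, r was 0.72. In fipronil rats r was 0.49 (exact permutation p = 0.218, adjusted p = 0.545).

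A wider look, chosen after the data were seen, took all 465 pairs of 31 genes as deviations from the group mean. These were the genes with 15 values and no saturation. Unlike the 31 genes never saturated that are counted above, they include Plin2 and leave out Decr1. Of these pairs, 11 passed at an adjusted p under 0.05 (permutation test within groups, 100000 resamples), all positive and of the same sign in both groups. All values of an array share its scaling. In 7 of the 11 pairs, Crat, Decr2 or Eci1 took part, and the fipronil values of these genes fell into separate sets of the same rats, so no r is given for them. The 3 rats fipronil 1, 3 and 6 had Crat signals of -1.15 to -0.90, while the other 5 had -0.08 to 0.49. Decr2, in the same order, was 2.35 to 2.38 and 2.61 to 2.76, and Eci1 was 4.61 to 4.97 and 5.26 to 5.76. The sets hold fewer than 6 rats each, and the relation within them was not tested.

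Among the 4 other pairs, r was 0.79 to 0.86 and Spearman rho 0.59 to 0.81 over 15 rats. Acadl and Acadm, dehydrogenases of long and medium chains, had r = 0.86 (rho = 0.74, permutation p = 0.00015, adjusted p = 0.0331), which was 0.67 without the 2 rats farthest from the median of Acadl. Slc25a20, the carrier of acylcarnitines, had r = 0.84 with Acadl (rho = 0.76, permutation p = 0.00048, adjusted p = 0.0331) and r = 0.79 with Acaa2 (rho = 0.81, permutation p = 0.00057, adjusted p = 0.0331). Without the 2 farthest rats these were 0.75 and 0.74. Etfdh and Vnn1 had r = 0.81, which dropped to 0.52 without the 2 farthest rats and so rests on them. With the slide means removed, r was 0.71 to 0.88 in the 4 pairs.

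**Figure D4:**
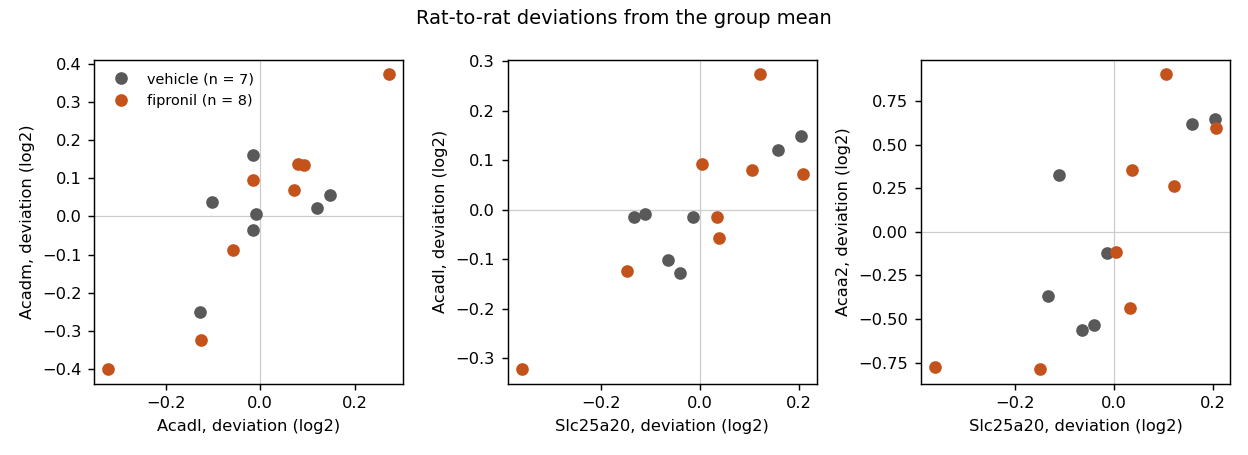
Deviation of each rat from its group mean (log2 signal) for Acadl and Acadm, Slc25a20 and Acadl, and Slc25a20 and Acaa2, with vehicle (n = 7) in grey and fipronil (n = 8) in orange. Points run from lower left to upper right in each panel, with r of 0.86, 0.84 and 0.79 over 15 rats. For Acadl and Acadm, r was 0.48 in vehicle and 0.96 in fipronil rats.

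No gene of the set differed between slides at an adjusted p under 0.05 (limma's F test, 0 of 34). Of all features 2.4% did, so few that 0 of 34 does not set the genes apart. In the same F test, Vnn1 and Pdk4 had an unadjusted p under 0.05, of 0.039 and 0.025. The median SD within groups was 0.23 over the 35 genes, against 0.26 over all features, and was largest for Vnn1 (0.71), Crat (0.69), Cd36 (0.66), Fgf21 (0.62) and Acaa2 (0.58).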

How the data were processed

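The deposited array files hold the intensity of each spot from Agilent's Feature Extraction software, version 9.5.3.1, per the file headers; the processed intensity is background subtracted and detrended, but not normalized between arrays. The deposited flags of each spot (0 or 1) mark saturation, outliers and signal well above background. The authors' deposited value table holds log2 values with column medians near 7.657, ranks close to those of the processed intensity and a direction from low to high signal; its normalization is not given in the sources used here, and it served as an alternative. Limma and Feature Extraction 9.5 are named in the submitters' processing notes.

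Signal was log2 processed intensity minus the 75th percentile of non-control probes of the array. Outlier spots were left out and spots of a probe averaged. Tested were features above background on 7 or more arrays with a value on 12 or more, by limma 3.58.1 in R 4.3.3 (lmFit, then eBayes; two-sided; Benjamini-Hochberg over 20343 features, threshold 0.05). Correlations used SciPy 1.17.1. The number of arrays, 7 and 8, limits the precision. Symbols came from a RefSeq table of GRCr8, used for names; rn4 coordinates are those of the file headers, and the exon under a probe is not given here. The genes named with full values had an unadjusted p under 0.05 or saturation, and the other pathway genes an adjusted p under 0.05 or one of the 10 smallest p, of which some are not reported here. The genes and lists were chosen with earlier results of these data known. The fit was tested on simulated data, and 35 alternatives were run.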

Additional observations from a re-analysis of the deposited data

Results flagged for a closer look

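In 5 of 70 groups of rats, 2 for each of the 35 genes, 1 rat lay apart from the others by the Dixon criterion; chance gives about 1 in 20. Rat fipronil 2 was the lowest of its group on the 3 saturated probes, with signals of 7.89 for Fabp1 (next rat 8.18), 8.16 for Acsl1 (next 8.42) and 7.88 for Acaa1a (next 8.15). Its array had the highest 75th percentile of all 15, 269.5, by which these signals are scaled. The same rat was the highest of its group for Etfdh, at 4.19 against a group median of 3.61 (next rat 3.67). Rat fipronil 7 was the highest for Creb3l3, at 7.14 against a median of 6.83 (next 6.94).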

How the results depend on the processing

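Over 35 alternatives, 0 genes of the set were called in each, and the smallest adjusted p was 0.0633 (Acadvl, without vehicle replicate 3). Their median difference stayed below zero, from -0.22 to -0.11. Whether the replicate numbers pair the rats cannot be settled from these values, and the main fit took the rats as unpaired. Of 7 same-numbered pairs, 3 had a residual correlation over 0.1, and 3 of 7 rats correlated best with their own number. Most same-numbered pairs also shared a slide. The mean residual correlation between vehicle and fipronil rats was 0.09 on the same slide and -0.03 on other slides. With the replicate block, 0 genes were called, and 9 were lower and 1 higher at an unadjusted p under 0.05. No companion gene was called (0), and 90 of 20343 features were called in place of 175.

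The count of genes lower at an unadjusted p under 0.05, 13 in the report, was 8 with normexp and quantile normalization, 5 with normexp and 75th percentile scaling, 6 in the authors' deposited table, 5 with median scaling, 8 with quantile normalization alone, 3 with array brightness as a covariate, 6, 8 and 5 without slide 1, 2 and 4, and 8 to 15 with 1 rat left out (8 without fipronil replicate 3). The count higher, 1 in the report, was 0 with normexp and 75th percentile scaling, with quantile normalization, with no filter, with slide as a block, with array weights and without slide 1, 2 or 4, 2 with median scaling, and 0 to 1 with 1 rat left out (0 without any of fipronil 1 to 6, vehicle 2 or vehicle 3). Median scaling moved the median of all features to 0.04 and turned the split of all features at that threshold to 10.2% higher and 6.99% lower. Companion calls, 1 in the report, were 0 with normexp and 75th percentile scaling, no filter, the mean of the probes, the brightness covariate and without any of the slides 1 to 4, 2 with array weights, and 0 to 2 with 1 rat left out (0 without any of fipronil 1, 3, 7 and 8 or vehicle 2, 4, 6 and 7, and 2 without vehicle 3). The causes were not tested.

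The signs of some differences turned, in genes that had no adjusted p under 0.05 in any setting. Not all of these differences were small. The main fit gave 0.25 for Cpt1a, 0.15 for Decr1, 0.28 for Fgf21 and -0.21 for Hadha, which is counted among the lower genes. With the brightness covariate the turned values were 0.0076 (Hadh), -0.23 (Decr1), 0.077 (Ehhadh), -0.17 (Pex11a), 0.0013 (Creb3l3) and -0.19 (Fgf21). With median scaling they were 0.041 (Crat), 0.010 (Hadhb) and 0.029 (Decr2). In the authors' deposited table they were 0.0041 (Crat) and 0.00048 (Acaa1a). Slc27a2 was 0.0014 with normexp and quantile normalization, and Hadha was 0.043 as the mean of its probes. Without slide 1 they were 0.13 (Crat), 0.054 (Ehhadh) and -0.048 (Pex11a). Without slide 2 they were 0.046 (Plin2), 0.12 (Crat) and 0.040 (Hadhb), and without slide 3 they were 0.12 (Crat) and 0.0057 (Decr2). Without slide 4 they were -0.050 (Cpt1a), -0.11 (Acaa2), -0.079 (Decr1) and -0.15 (Pex11a). With 1 rat left out, Crat ranged from -0.20 to 0.15, Ehhadh from -0.14 to 0.026 and Pex11a from -0.11 to 0.081. The correlation of Etfa and Etfb turned to 0.56 in vehicle rats with normexp and quantile normalization, and to -0.37 in fipronil rats with slide means removed. Saturation leaves only bounds on the brightest probes of Fabp1, Acsl1 and Acaa1a. Both Fabp1 probes were saturated, while the other probes of Acsl1 and Acaa1a never were.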
